A study of Mus musculus with 8 samples.

Results

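The respiratory chain genes described here are the rows of the deposited expression table whose symbols begin with Nduf, Uqcr or Atp5, are Sdha to Sdhd, name a cytochrome c oxidase subunit of the families Cox4 to Cox8, or are Cyc1 or Cycs. The rule finds 94 of 21879 genes. They comprise 36 subunits of complex I, 4 of complex II, 9 of complex III, cytochrome c itself, 19 genes of complex IV and its isoforms, 15 subunits of complex V (ATP synthase) and 10 related genes that are not subunits. The related genes are Ndufaf1 to Ndufaf7, which help assemble complex I, Cox7a2l, a factor of respiratory supercomplexes, and Atp5s and Atp5sl, which are named after ATP synthase but are not subunits of the enzyme. No mitochondrially encoded subunit is among the rows used here.

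Complexes I, III and IV pass electrons from NADH to oxygen and pump protons across the mitochondrial inner membrane, complex II feeds in electrons from succinate, and complex V uses the returning protons to make ATP. Cytochrome c carries electrons between complexes III and IV. Heart and skeletal muscle replace some widely expressed complex IV subunits with muscle isoforms: Cox6a2 stands in for Cox6a1, Cox7a1 for Cox7a2 and Cox8b for Cox8a.

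Messenger RNA was sequenced in C2C12, an immortal mouse myoblast line that can form myotubes in low serum. There were 4 libraries from cells transfected with an siRNA against Fam129b (siFam129b) and 4 from cells transfected with the control siRNA siNC, delivered in both groups with Lipofectamine RNAiMAX. Every sample in both groups is labelled muscle differentiation. The serum given is 10% for proliferation and 2% for differentiation, the same for every library of both groups. No further genotype, dose or time is given. The stated purpose was to study FAM129B in muscle wasting, and the comparison asks which transcripts differ after its depletion. Whether the libraries of a group came from separate cultures is not given, so the p-values speak to sample-to-sample spread that could be technical. Values are FPKM, read counts that the authors scaled for gene length and library size, and log2 differences are siFam129b minus siNC on the log2(FPKM + 1) scale.

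Fam129b transcript was at 91.6, 87.0, 87.3 and 128 FPKM in siFam129b libraries 1 to 4, against 154, 163, 179 and 175 FPKM in siNC libraries 1 to 4, with no overlap (exact two-sided permutation p = 0.0286, the smallest that 4 against 4 allows). Reads recovered from the values came to 31466869 to 36031688 per library. siFam129b library 4 stood apart: its FPKM values summed to 470385, against 391336 to 398292 in the other 7, and its short genes were high relative to its long ones. Group medians and the main differences are therefore given with and without that library. The differentiation label was checked against 12 muscle markers. With desmin (Des), which myoblasts also express, they summed to 195 to 316 FPKM in siFam129b and 194 to 315 FPKM in siNC. Without it the sum of the other 11 was 19.4 to 31.5 FPKM in siFam129b and 22.3 to 58.8 FPKM in siNC, Myh8 was listed at 0 in all 8 libraries and Ckm did not exceed 0.984 FPKM. The 4 markers of dividing cells summed to 361 to 393 FPKM in siFam129b and 382 to 416 FPKM in siNC. The 4 myoblast markers summed to 2805 to 3870 FPKM in siFam129b and 2786 to 2975 FPKM in siNC. Nearly all of that sum came from 1 marker: the highest averaged 3056 FPKM in siFam129b and 2840 FPKM in siNC. The median of the 4 was 23.3 FPKM in siFam129b and 23.7 FPKM in siNC. Their log2 differences ran from -0.53 to 0.13 with all libraries and from -0.24 to 0.08 without siFam129b library 4. The 4 fibroblast markers summed to 384 to 638 FPKM in siFam129b and 374 to 637 FPKM in siNC. For the 4 adipocyte markers the sum was 6.37 to 9.62 FPKM in siFam129b and 5.75 to 9.28 FPKM in siNC. Of these, Pparg averaged 6.95 FPKM in siFam129b and 6.89 FPKM in siNC, and Adipoq and Plin1 were at or near 0.

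In all, 87 of the 94 genes reached a mean of 1 FPKM and were tested. None passed an adjusted p of 0.05 (limma with Benjamini-Hochberg adjustment over all 11025 tested genes), where 0% of all tested genes passed. Of the 87, 8 had an unadjusted p under 0.05, where 274 of all 11025 tested genes did. By voom on the recovered reads 0 members were called and 4 had an unadjusted p under 0.05, where 254 of all genes did. The lowest adjusted p of any member was 0.784. Without siFam129b library 4 it was 0.870 and again no member passed, where 0.00907% of all tested genes, Fam129b itself, passed. In bulk samples such as these, fewer cells of a type and less RNA per cell cannot be told apart.

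Although no gene passed, the values leaned one way. With all 8 libraries, 78 of 87 members had a positive log2 difference and the median was 0.19, whereas over all tested genes 50.6% were positive with a median of 0.003. Other short genes also had positive medians, as given below by gene length. Without siFam129b library 4 the median of the members was 0.04 with 59 of 87 positive, and over all tested genes 50.7% were positive with a median of 0.002. siFam129b library 4 was the highest of all 8 libraries for 77 of the 87 members, against 39.9% of all tested genes. It was the lowest for 2 members, Ndufc2 and Ndufs1, against 37.7% of all tested genes. The members took 1.19% of the reads in that library, against 0.839%, 0.836% and 0.817% in siFam129b libraries 1 to 3 and 0.819%, 0.858%, 0.844% and 0.828% in siNC libraries 1 to 4. The same library widened the spread: the median coefficient of variation of a member was 24.5% over the 4 siFam129b libraries, 6.10% over siFam129b libraries 1 to 3 and 6.55% in siNC.

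**Figure D1:**
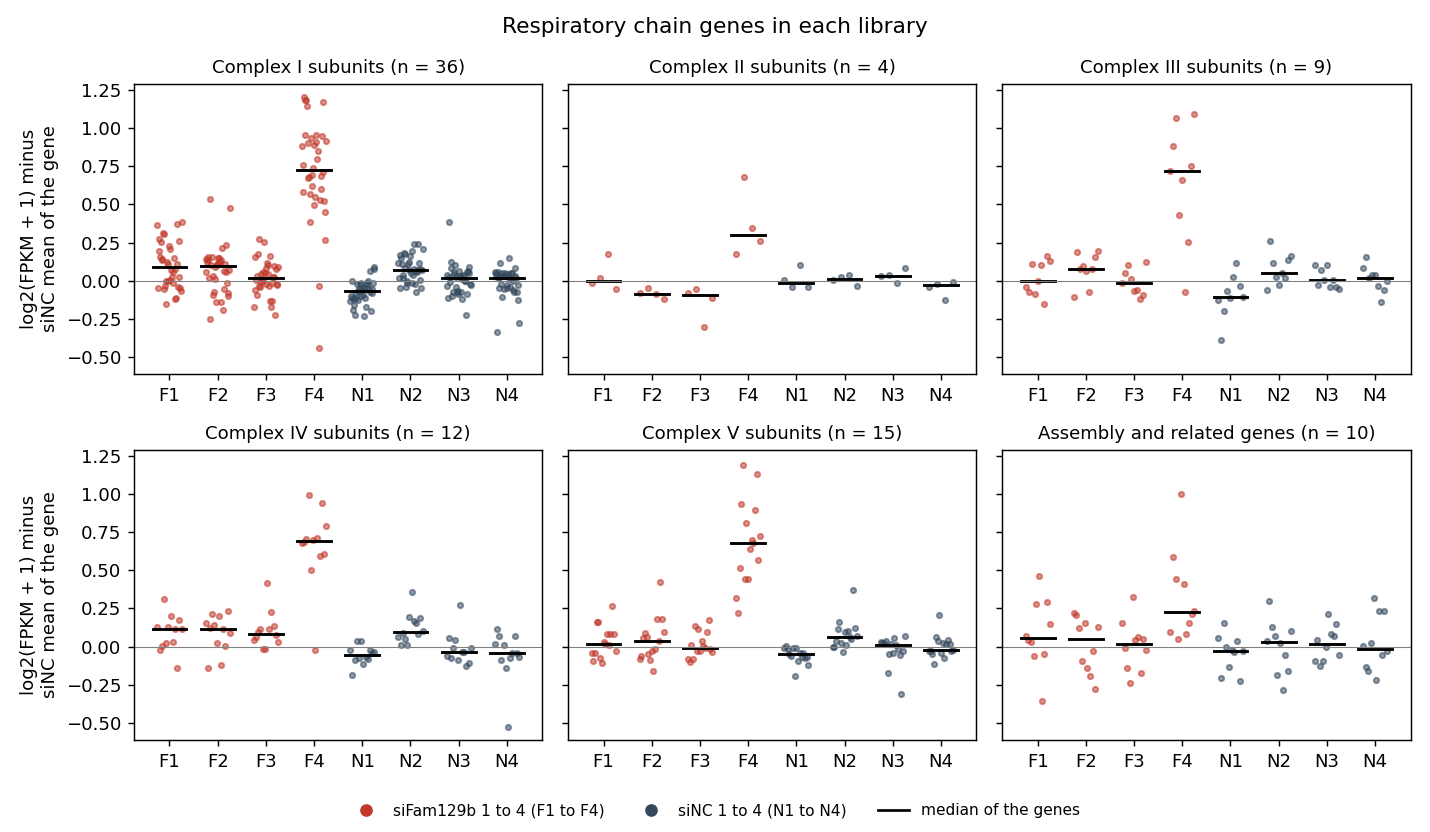
The log2 difference of each tested member except Cycs from its siNC mean in each library, by complex. The siFam129b libraries (F1 to F4) are left of the siNC libraries (N1 to N4). The medians of complexes I, III, IV and V lie between 0.68 and 0.72 in siFam129b library 4 and between -0.11 and 0.12 in the other 7 libraries.

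The NADH dehydrogenase, complex I, was the largest group, and its 36 subunits ranged in siNC from 7.58 FPKM for Ndufa3 to 124 FPKM for Ndufb7, both accessory subunits. The median log2 difference was 0.24 with all libraries, with 35 of 36 positive, and 0.06 without siFam129b library 4, with 27 of 36 positive. Per library, the median difference from the siNC mean was 0.09, 0.09, 0.02 and 0.72 in siFam129b libraries 1 to 4, against -0.07, 0.07, 0.02 and 0.02 in siNC libraries 1 to 4. The first 3 siFam129b libraries thus lay close to the siNC libraries, and the last lay apart. The 7 core subunits, which hold the flavin and iron-sulphur clusters and the quinone site, had a median of 0.11 with all libraries and -0.01 without siFam129b library 4. For the 29 accessory subunits it was 0.27 with all libraries and 0.08 without that library, with 24 of 29 positive. The core subunits had longer genes, with a median implied length of 1591 bp, against 652 bp for the accessory subunits. With all libraries, genes outside the respiratory chain set had a median of 0.07 from 1500 to 2000 bp and 0.17 from 500 to 1000 bp. The part of length in this contrast was not tested.

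One core subunit had lower values in every siFam129b library. Ndufs1, the largest subunit and a carrier of iron-sulphur clusters, was at 46.3, 44.0, 44.6 and 36.8 FPKM in siFam129b, against 49.95, 47.8, 51.6 and 52.4 FPKM in siNC. Its groups did not overlap, and siFam129b library 4 was the lowest, unlike for nearly every other member. The log2 difference was -0.23 ± 0.092 (SE, n = 4 each; limma adjusted p = 0.784) and -0.16 ± 0.051 without siFam129b library 4 (adjusted p = 0.870). Ndufs1 has a long transcript for this group, with an implied length of 2786 bp. It was the only member with all 4 siFam129b libraries below all siNC libraries, 1 of 87, where 1.46% of all tested genes had that pattern.

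The opposite pattern, all 4 siFam129b libraries above all siNC libraries, was seen in 5 of 87 members, where 1.9% of all tested genes had it. They were the accessory complex I subunits Ndufs5, Ndufa3 and Ndufb6, the complex IV subunit Cox6a1, and Atp5s. Ndufs5, a subunit of the intermembrane space side, was at 73.6, 66.9, 60.7 and 111 FPKM in siFam129b, against 54.0, 59.7, 53.5 and 60.3 FPKM in siNC. siFam129b library 3 exceeded the highest siNC library by a small margin. Its log2 difference was 0.41 ± 0.169 (SE) with all libraries and 0.23 ± 0.076 without siFam129b library 4. Ndufa3, a small membrane subunit, was at 8.46, 11.4, 8.66 and 18.5 FPKM in siFam129b, against 6.90, 7.81, 8.33 and 7.29 FPKM in siNC, so siFam129b libraries 1 and 3 lay just above the siNC range. For Ndufa3 the log2 difference was 0.51 ± 0.213 (SE), the largest of any member, and 0.28 ± 0.108 without siFam129b library 4. Ndufb6, a membrane arm subunit, was at 47.9, 46.0, 45.0 and 61.1 FPKM in siFam129b, against 39.8, 41.1, 42.3 and 42.8 FPKM in siNC, a difference of 0.25 ± 0.107 (SE), and 0.16 ± 0.050 without siFam129b library 4. All these had an adjusted p of 0.784 with all libraries and of 0.870 without siFam129b library 4.

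Ndufv3, an accessory subunit of the NADH-oxidising module, had the smallest unadjusted p of the 87 tested members, 0.0241. It was at 35.6, 38.1, 28.9 and 51.8 FPKM in siFam129b, against 28.9, 31.4, 26.6 and 22.2 FPKM in siNC, and the groups overlapped in siFam129b library 3. Its log2 difference was 0.47 ± 0.173 (SE) with all libraries and 0.32 ± 0.126 without siFam129b library 4. Ndufc2, a membrane arm subunit, was 1 of the 2 members that were lowest in siFam129b library 4. It was at 39.6, 41.6, 40.0 and 34.8 FPKM in siFam129b, against 34.9, 35.05, 36.6 and 35.9 FPKM in siNC: the first 3 siFam129b libraries exceeded every siNC library and the last lay below them all. For Ndufc2 it came to 0.12 ± 0.083 (SE) with all libraries and 0.18 ± 0.047 without that library (adjusted p = 0.870). Taking every member, 7 had an unadjusted p under 0.05 in the higher direction, where 1.78% of all tested genes did, and 1 in the lower direction, where 0.707% did. Without siFam129b library 4 the counts were 7 higher, where 2.59% of all tested genes were, and 2 lower, Ndufs1 and Atp5b, where 1.71% were. siFam129b libraries 1 to 3 lay above all siNC libraries for 6 of 87 members, where 3.26% of all tested genes did, and below all for 4, namely Ndufs1, Sdhd, Atp5a1 and Atp5b, where 2.58% did.

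Complex II, the succinate dehydrogenase that also works in the citric acid cycle, held the most even levels. In siNC its 4 subunits lay between 63.2 and 93.2 FPKM. Sdha, the flavoprotein, was at 92.1, 87.9, 88.3 and 105 FPKM in siFam129b, against 93.5, 93.4, 95.4 and 90.5 FPKM in siNC. Sdhb, the iron-sulphur subunit, was at 64.1, 61.2, 61.0 and 102 FPKM in siFam129b, against 61.5, 64.3, 64.8 and 62.4 FPKM in siNC. For both, siFam129b library 4 was high and the other 3 overlapped siNC or lay below it. Sdhc, a membrane anchor, was at 95.4, 79.3, 68.2 and 107 FPKM in siFam129b, against 90.5, 86.7, 83.4 and 77.4 FPKM in siNC. Sdhd, the other anchor, was at 78.3, 74.8, 75.2 and 97.7 FPKM in siFam129b, against 79.2, 79.2, 86.1 and 80.9 FPKM in siNC. The first 3 siFam129b libraries were below every siNC library for Sdhd but spread across the siNC range for Sdhc. The median log2 difference of complex II was 0.015 with all libraries, with 2 of 4 positive, and -0.07 without siFam129b library 4, with 0 of 4 positive, so its sign turned without that library. It also turned without siNC library 4 (-0.008), with all libraries scaled to an equal sum (-0.05) and after quantile normalization (-0.04).

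Complex III ran from 27.8 FPKM for Uqcrq to 125 FPKM for Uqcrh in siNC, both small subunits. Its 9 subunits had a median log2 difference of 0.16 with all libraries, with 8 positive, and 0.008 without siFam129b library 4, with 5 positive. Cyc1, the haem-bearing cytochrome c1, was at 120, 115, 122 and 204 FPKM in siFam129b, against 113, 119, 133 and 131 FPKM in siNC. Its high value was in siFam129b library 4 alone, and the log2 difference was 0.14 with all libraries and -0.05 without it. Uqcrq was at 30.3, 31.9, 30.3 and 60.1 FPKM in siFam129b, against 25.6, 31.0, 26.7 and 27.7 FPKM in siNC, the largest log2 difference of the complex at 0.39 ± 0.206 (SE), and 0.15 without siFam129b library 4. Uqcrfs1, the Rieske iron-sulphur protein, differed by 0.01 with all libraries and by -0.06 without siFam129b library 4. The core protein Uqcrc2 was the sole subunit of the complex that was not highest in siFam129b library 4: its level there was 52.5 FPKM, just under the siNC range of 53.6 to 57.4 FPKM.

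Cytochrome c, Cycs, was at 36.3, 36.8, 41.7 and 45.1 FPKM in siFam129b, against 38.6, 40.6, 42.1 and 45.2 FPKM in siNC. The groups overlapped and the highest value of all 8 was in siNC. The log2 difference was -0.06 ± 0.098 (SE) with all libraries and -0.12 ± 0.072 without siFam129b library 4.

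In complex IV, 12 of 19 genes were tested. All 12 had a positive log2 difference with all libraries, with a median of 0.23, and 11 without siFam129b library 4, with a median of 0.08. The ubiquitous subunits were abundant, led in siNC by Cox4i1 at 268 FPKM and Cox6a1 at 262 FPKM. Cox6a1 was at 327, 305, 285 and 523 FPKM in siFam129b, against 270, 272, 261 and 247 FPKM in siNC. All 4 siFam129b libraries exceeded all siNC libraries. Its log2 difference was 0.41 ± 0.175 (SE; unadjusted p = 0.0422, adjusted p = 0.784) and 0.22 ± 0.058 without siFam129b library 4 (unadjusted p = 0.0049, adjusted p = 0.870). Cox4i1, an early subunit of assembly, was at 294, 299, 276 and 430 FPKM in siFam129b, against 264, 280, 257 and 271 FPKM in siNC. Ndufa4, first placed in complex I and now counted with complex IV, was at 247, 243, 232 and 394 FPKM in siFam129b, against 223, 245, 227 and 217 FPKM in siNC. Both overlapped siNC in their lower libraries. Cox4i1 differed by 0.25 with all libraries and by 0.11 without siFam129b library 4, and Ndufa4 by 0.26 and 0.08. Cox7b, a small subunit, differed by 0.26 ± 0.120 (SE) with all libraries and by 0.15 without siFam129b library 4. Cox5a, which sits on the matrix side, differed by 0.15 with all libraries and by -0.03 without siFam129b library 4.

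The muscle isoforms were low or near the limit of counting in both groups. Cox7a1 was the highest of them and was at 1.82, 1.81, 2.27 and 1.42 FPKM in siFam129b, from 21, 21, 30 and 17 reads, against 1.27, 2.14, 1.97 and 0.703 FPKM in siNC, from 16, 27, 24 and 9 reads. The groups overlapped. Library 4 was the lowest of the siFam129b libraries for Cox7a1. Its log2 difference was 0.20 ± 0.195 (SE; adjusted p = 0.784) with all libraries and 0.27 ± 0.203 without siFam129b library 4 (adjusted p = 0.870), and it ran from 0.03 to 0.32 with any 1 library left out. Its ubiquitous partner Cox7a2 was at 71.0, 63.9, 75.1 and 114 FPKM in siFam129b, against 66.2, 78.0, 67.8 and 66.0 FPKM in siNC. Cox7a1 thus made up 2.35 ± 0.773% of the summed FPKM of the pair in siFam129b and 2.10 ± 0.812% in siNC (SD, n = 4 each), a difference smaller than the spread. In siFam129b libraries 1 to 3 the share was 2.73 ± 0.218% (SD, n = 3), inside the siNC range of 1.05% to 2.81% except for library 3 at 2.93%.

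Cox6a2 had 2, 6, 0 and 0 reads in siFam129b, against 2, 1, 0 and 2 reads in siNC, where Cox6a1 had between 4613 and 9133. Its share of the pair was 0.0617 ± 0.0886% in siFam129b and 0.0419 ± 0.0326% in siNC (SD, n = 4 each), and 0.0823 ± 0.0961% in siFam129b libraries 1 to 3. Cox8b had 0, 0, 2 and 0 reads in siFam129b, against 7, 2, 0 and 2 reads in siNC. Its partner Cox8a was at 200, 208, 187 and 270 FPKM in siFam129b, against 172, 202, 164 and 172 FPKM in siNC, and Cox8b made up 0.0204 ± 0.0409% of that pair in siFam129b and 0.124 ± 0.140% in siNC (SD, n = 4 each). In siFam129b libraries 1 to 3 the Cox8b share was 0.0273 ± 0.0472%. In a library, 3 reads of Cox6a2 or Cox8b correspond to 0.229 to 0.289 FPKM, the limit that a count of 0 allows, so at this depth no difference in either gene could be shown. These reads and limits cover counting error only, and the muscle markers given above were low in the same libraries.

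**Figure D2:**
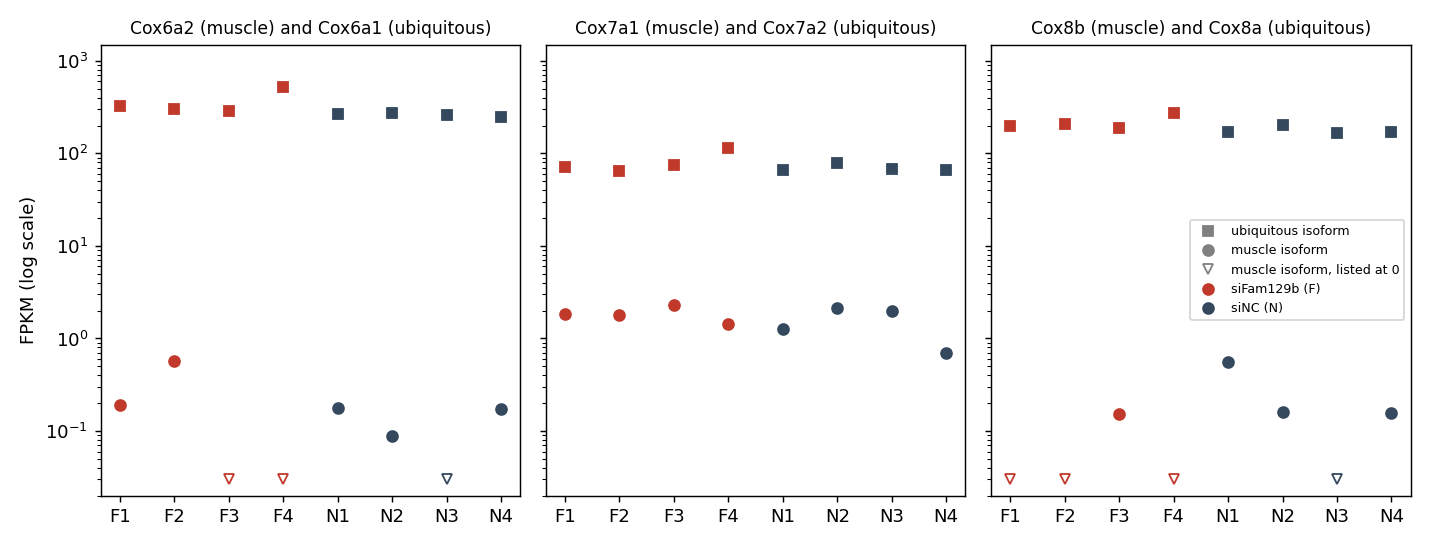
FPKM of each muscle isoform of complex IV and its ubiquitous partner in the siFam129b and siNC libraries, on a logarithmic axis. Cox7a1 lies between 0.703 and 2.27 FPKM and its partner Cox7a2 between 63.9 and 114 FPKM, and Cox6a2 and Cox8b lie at or near the level of 3 reads.

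The promoters of these isoforms are shown because the muscle and ubiquitous copies differed so much in level. They are RefSeq windows of 300 bases (GRCm38.p6), from 250 bases before the gene start to 50 after it, printed along the gene's strand. Capitals mark the letters CAGCTG (an E-box of the kind that MyoD family factors bind), CCGGAAG (an ETS motif), GCGCATGC (the core of the NRF1 motif), each on either strand, and TATAAA on the printed strand. Cox6a1 lies at chr5:115348909-115349208 on the minus strand, Cox7a1 at chr7:30183921-30184220 on the plus strand, Cox7a2 at chr9:79759804-79760103 on the minus strand, Cox8a at chr19:7217567-7217866 on the minus strand and Cox8b at chr7:140900397-140900696 on the minus strand. Cox6a2 is not shown.
Cox6a1: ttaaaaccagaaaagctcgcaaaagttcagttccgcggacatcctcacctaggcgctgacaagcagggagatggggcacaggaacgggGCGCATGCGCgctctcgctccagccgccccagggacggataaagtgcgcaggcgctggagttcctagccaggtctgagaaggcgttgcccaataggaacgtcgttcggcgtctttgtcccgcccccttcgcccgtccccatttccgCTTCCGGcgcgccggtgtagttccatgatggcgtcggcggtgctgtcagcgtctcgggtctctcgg
Cox7a1: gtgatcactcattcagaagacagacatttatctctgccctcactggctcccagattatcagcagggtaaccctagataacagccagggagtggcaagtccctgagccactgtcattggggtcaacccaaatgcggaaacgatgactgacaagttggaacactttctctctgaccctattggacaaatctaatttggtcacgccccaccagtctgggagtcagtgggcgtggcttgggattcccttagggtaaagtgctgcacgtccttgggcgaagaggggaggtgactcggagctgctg
Cox7a2: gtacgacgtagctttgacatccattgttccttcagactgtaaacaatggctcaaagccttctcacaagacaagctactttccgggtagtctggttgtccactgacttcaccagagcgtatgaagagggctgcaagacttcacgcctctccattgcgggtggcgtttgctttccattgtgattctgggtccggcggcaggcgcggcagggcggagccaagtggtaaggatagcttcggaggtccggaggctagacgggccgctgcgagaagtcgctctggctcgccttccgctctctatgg
Cox8a: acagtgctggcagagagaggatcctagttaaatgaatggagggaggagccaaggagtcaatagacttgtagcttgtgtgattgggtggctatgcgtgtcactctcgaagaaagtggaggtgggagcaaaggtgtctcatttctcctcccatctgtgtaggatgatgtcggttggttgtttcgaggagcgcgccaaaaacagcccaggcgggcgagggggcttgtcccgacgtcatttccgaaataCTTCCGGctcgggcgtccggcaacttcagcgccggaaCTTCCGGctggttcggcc
Cox8b: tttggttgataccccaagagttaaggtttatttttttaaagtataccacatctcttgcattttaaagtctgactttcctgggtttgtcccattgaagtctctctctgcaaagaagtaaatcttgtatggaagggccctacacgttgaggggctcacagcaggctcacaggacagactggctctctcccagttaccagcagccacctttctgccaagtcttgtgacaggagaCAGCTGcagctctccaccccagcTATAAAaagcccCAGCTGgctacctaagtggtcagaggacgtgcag

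The Cox6a1 window held 1 ETS motif and the NRF1 core on both strands, overlapping in 1 run, and had 32 CG dinucleotides. The Cox8a window held 2 ETS motifs and 19 CG dinucleotides, and that of Cox8b, the least abundant of the 5 genes, held 2 E-boxes, 1 TATA motif and 2 CG dinucleotides. Neither Cox7a1, with 7 CG dinucleotides, nor Cox7a2, with 20, held any of the 4 motifs in its window. Of the 94 members, 77 matched the promoter table. A gene was counted if any of its windows held the motif. The ETS motif was found for 22.1% of the matched members, against 9.93% of all 27025 genes with a promoter, expressed here or not. The NRF1 core was found for 16.9%, against 3.05%. The E-box was found for 7.79% of the matched members, against 18.3% of all these genes, and the TATA motif for 3.90%, against 9.77%. These are counts of letters and do not show binding.

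The remaining isoforms of complex IV stayed below 1 FPKM. Cox4i2, an isoform known from lung, had 0, 6, 1 and 4 reads in siFam129b, against 3, 8, 0 and 1 reads in siNC. Cox6b2, known from testis, had 2, 4, 0 and 0 reads in siFam129b, against 0, 2, 0 and 1 in siNC. Cox7b2 had 1 read over all siFam129b libraries, in library 4, against 1, 1, 0 and 0 in siNC, and Cox8c was listed at 0 in all 8. Ndufa4l2, a hypoxia-inducible paralogue of Ndufa4, had 5, 8, 7 and 4 reads in siFam129b, against 0, 0, 5 and 1 in siNC. The groups overlapped between siFam129b library 4 and siNC library 3. In a limma fit that kept genes below 1 FPKM, its log2 difference was 0.19 (unadjusted p = 0.00817, adjusted p = 0.830).

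ATP synthase ranged in siNC from 14.2 FPKM for Atp5k, a small subunit of the membrane sector, to 942 FPKM for Atp5b, the catalytic beta subunit. Its 15 subunits had a median log2 difference of 0.19 with all libraries, with 14 positive, and 0.01 without siFam129b library 4, with 9 positive. Atp5b was at 883, 903, 881 and 1097 FPKM in siFam129b, against 947, 941, 956 and 926 FPKM in siNC. The first 3 siFam129b libraries were below every siNC library and library 4 above them all. The log2 difference was -0.01 ± 0.098 (SE) with all libraries and -0.08 ± 0.036 without siFam129b library 4 (adjusted p = 0.870). Atp5a1, the alpha subunit of the catalytic head, was at 307, 299, 299 and 396 FPKM in siFam129b, against 315, 317, 324 and 311 FPKM in siNC, and showed the same arrangement.

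Atp5k was at 17.1, 19.1, 15.9 and 31.8 FPKM in siFam129b, against 13.2, 18.4, 11.1 and 14.2 FPKM in siNC. Its groups overlapped at siNC library 2, and the log2 difference was 0.50 ± 0.219 (SE) with all libraries and 0.29 ± 0.144 without siFam129b library 4. Atp5e, the epsilon subunit, was at 66.9, 62.5, 65.6 and 137 FPKM in siFam129b, against 57.1, 66.9, 52.9 and 62.5 FPKM in siNC. Its difference was 0.39 with all libraries and 0.12 without siFam129b library 4. The c ring, the rotor through which protons pass, is encoded by Atp5g1, Atp5g2 and Atp5g3, which make the same mature protein. Their summed level was 662, 615, 671 and 998 FPKM in siFam129b, against 626, 677, 667 and 672 FPKM in siNC. The median log2 difference of the 3 genes was 0.13 with all libraries and -0.02 without siFam129b library 4.

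The 10 related genes had a median log2 difference of 0.12 with all libraries and 0.05 without siFam129b library 4, with 7 positive in both. Ndufaf2, a late assembly factor of complex I, was at 12.8, 11.7, 13.2 and 21.7 FPKM in siFam129b, against 9.36, 9.0, 10.3 and 13.1 FPKM in siNC, a difference of 0.44 ± 0.192 (SE), and 0.26 ± 0.118 without siFam129b library 4. siNC library 4 lay inside the siFam129b range. Atp5s was at 2.43, 2.81, 2.64 and 2.49 FPKM in siFam129b, against 2.40, 2.35, 2.07 and 2.28 FPKM in siNC, with no overlap and no high value in library 4. Its log2 difference was 0.13 ± 0.090 (SE) with all libraries and 0.15 ± 0.084 without siFam129b library 4. Ndufaf4 had the lowest difference of the assembly factors at -0.10, and Cox7a2l differed by 0.11 with all libraries and by 0.00 without siFam129b library 4.

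**Figure D3:**
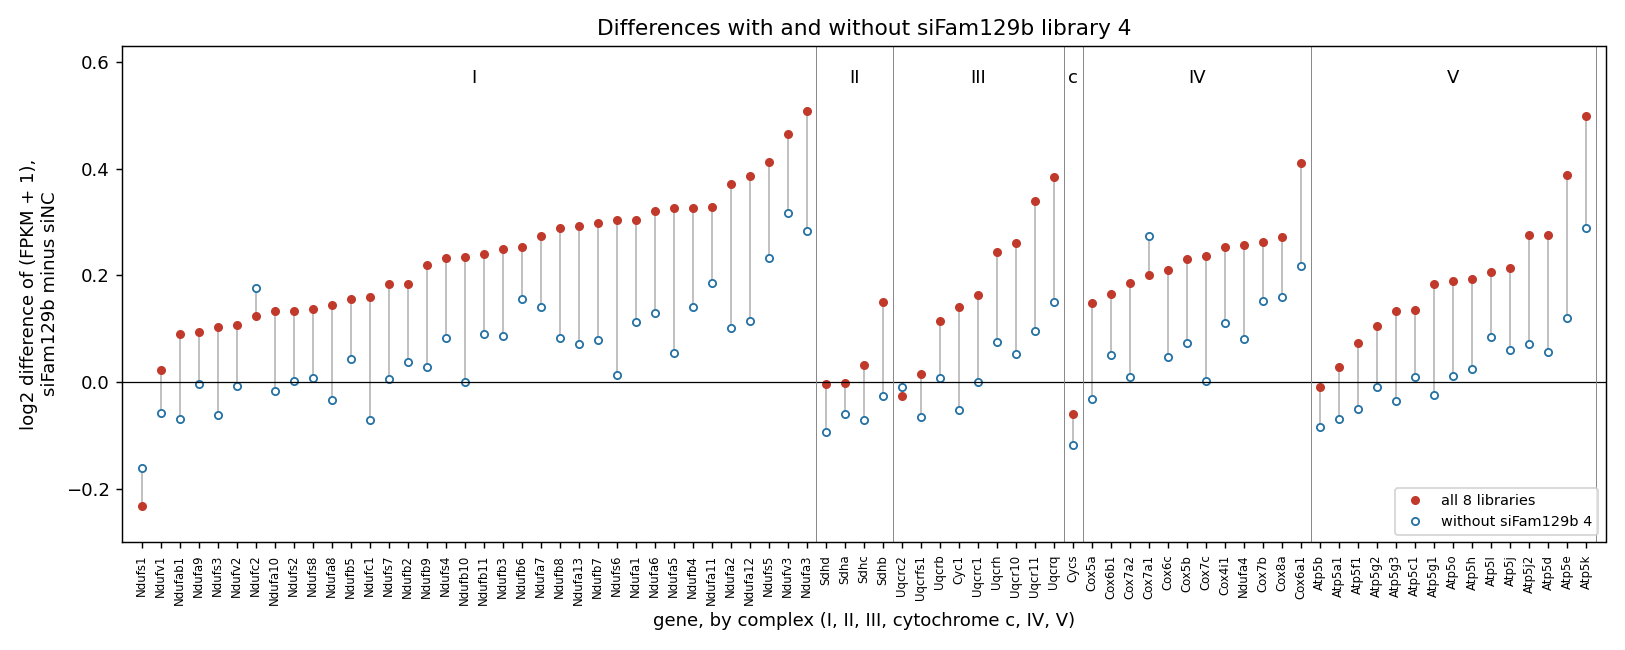
The log2 difference of each tested subunit and of cytochrome c, siFam129b minus siNC, with all 8 libraries and without siFam129b library 4, by complex. The median of these 77 genes is 0.21 with all libraries and 0.04 without that library. The related genes are not drawn.

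The difference of siFam129b library 4 from the others ran with gene length. Members had short transcripts, with a median implied length of 773 bp, against 2874 bp over all tested genes. The log2 difference of siFam129b library 4 from the mean of siFam129b libraries 1 to 3 had a median of 0.62 over the members and 0.02 over all tested genes. Among genes up to 500 bp it was 0.83 for 15 members and 0.70 for 64 other genes. Between 500 and 1000 bp it was 0.67 for 36 members and 0.54 for 631 other genes, and between 1000 and 1500 bp it was 0.44 for 19 members and 0.42 for 1064 other genes. The medians of members and other genes lay on the same side of 0 in every class up to 3000 bp. From 1500 to 2000 bp it was 0.46 for 11 members and 0.31 for 1394 other genes. From 2000 to 3000 bp it was 0.31 for 4 members and 0.13 for 2592 other genes, whereas between 3000 and 5000 bp it was 0.24 for 2 members and -0.17 for 3333 other genes. Among genes over 5000 bp, where no member falls, it was -0.62. Within the members the log2 difference of siFam129b library 4 ran from -0.29 for Cox7a1 to 1.16 for Ndufs6, an accessory complex I subunit that was 2.27-fold higher there. The part of length in the differences between groups was not tested. With all 8 libraries the median difference between groups was 0.28 for members and 0.25 for other genes up to 500 bp. Between 500 and 1000 bp it was 0.22 for members and 0.17 for other genes, and between 1000 and 1500 bp 0.13 and 0.11. Without siFam129b library 4 the median difference between groups was 0.08 for members and 0.08 for other genes up to 500 bp. Between 500 and 1000 bp it was then 0.06 for members and 0.03 for other genes.

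**Figure D4:**
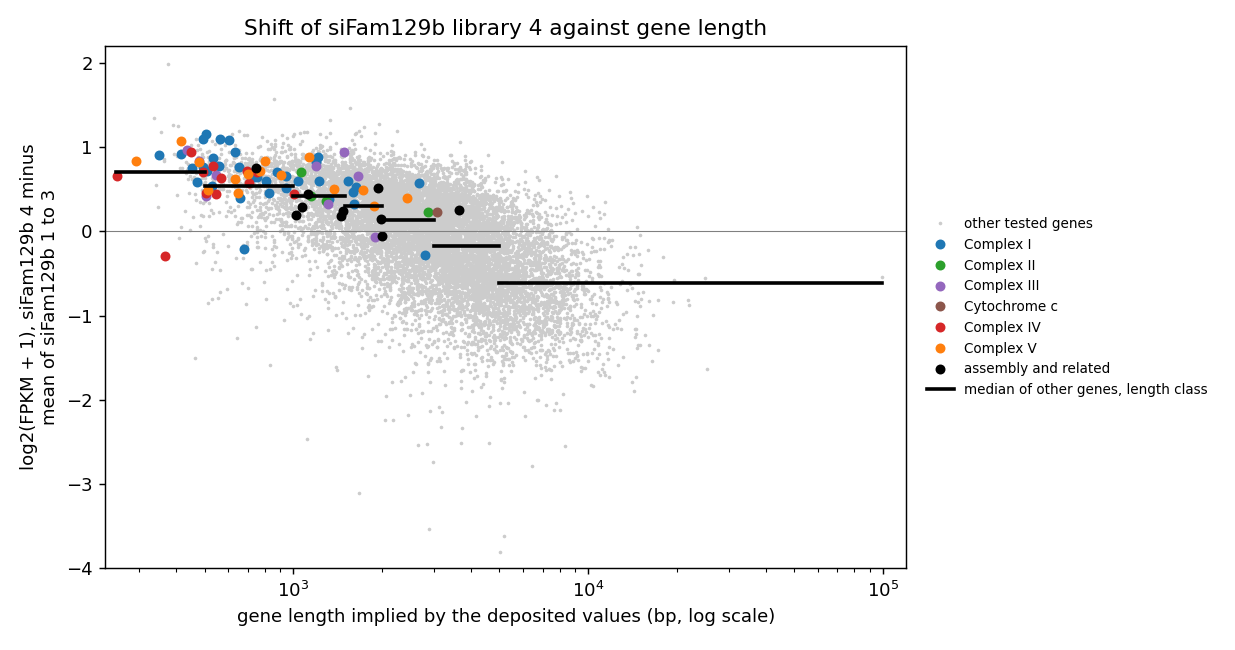
The log2 difference of siFam129b library 4 from the mean of siFam129b libraries 1 to 3, against implied gene length on a logarithmic axis, for members and for the other tested genes. The members fall mostly among short genes, with a median of 0.62.

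Levels differed far more between subunits than between groups. Per length, the siNC means spanned 16.3-fold in complex I, 1.47-fold in complex II and 4.49-fold in complex III. They spanned 176-fold among the tested genes of complex IV, where Cox7a1 was lowest, and 66.3-fold in complex V. Between groups, the log2 differences of the tested members ran from -0.23 to 0.51 with all libraries and from -0.16 to 0.32 without siFam129b library 4. Their medians were 0.19 and 0.04. Low FPKM in the smallest genes can depend on how the authors set gene length, since the implied lengths go down to 252 bp for Cox6c.

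**Figure D5:**
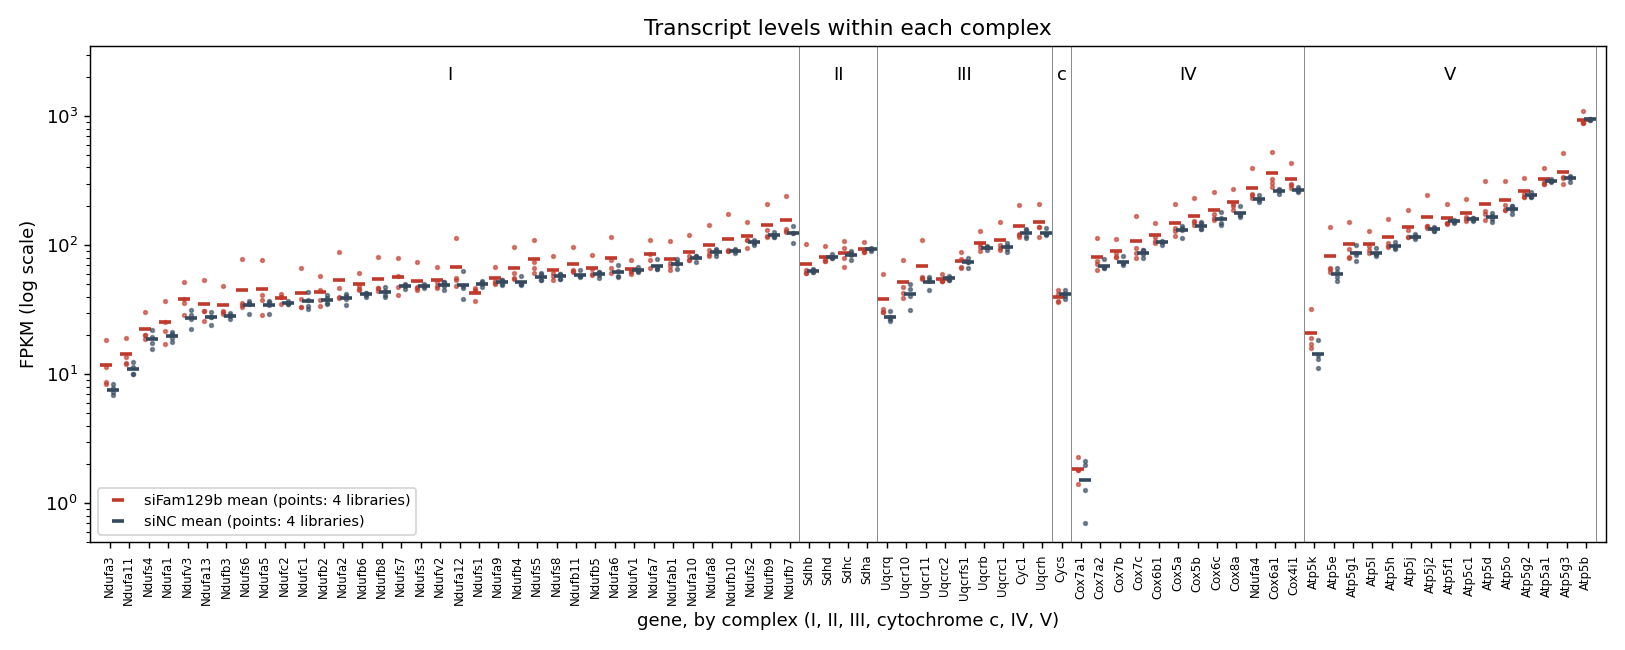
Mean FPKM of each tested subunit and of cytochrome c in siFam129b and siNC, by complex, on a logarithmic axis. Complex II lies between 63.2 and 93.2 FPKM in siNC, and complex V between 14.2 and 942 FPKM.

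Mitochondrial genes were also read from lists of assembly factors, regulators, carriers and import proteins, and none of the listed genes passed in either direction. Of 14 tested complex I assembly factors 7 had a positive log2 difference with all libraries and 6 without siFam129b library 4. These 14 include Ndufaf1 to Ndufaf7, which are also counted among the members above. Of those 7, 4 were positive with all libraries and 4 without siFam129b library 4. For 20 complex IV assembly factors the count was 10 in both. Of 17 citric acid cycle genes 7 were positive with all libraries and 3 without siFam129b library 4, and of 15 regulators of mitochondrial biogenesis, 5 and 4. None of these 4 lists had a majority of positive differences. Of 18 import genes 14 were positive with all libraries and 4 without siFam129b library 4, of 15 fusion, fission and cristae genes 8 and 5, and of 8 carriers and porins 6 and 3. Among 4 complex II and 5 complex III assembly factors the counts were 2 and 3 with all libraries and 2 and 1 without siFam129b library 4.

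In some genes of these lists the groups did not overlap. All siFam129b libraries were below all siNC libraries for 3 of 17 citric acid cycle genes and 1 of 3 ATP synthase assembly factors. Over all tested genes, 1.46% had that pattern. The reverse held for 2 of 18 import genes and 1 of 15 fusion, fission and cristae genes, where 1.9% of all tested genes had it. Tmem70, which helps build the c ring into the enzyme, was at 19.5, 19.8, 22.0 and 16.2 FPKM in siFam129b, against 25.8, 23.4, 24.6 and 24.9 FPKM in siNC. All 4 siFam129b libraries were below all siNC libraries. For Tmem70 this gave a log2 difference of -0.34 with all libraries (unadjusted p = 0.00813, adjusted p = 0.784) and -0.26 without siFam129b library 4. Tomm7, a small subunit of the outer membrane import pore, was at 15.2, 14.3, 14.4 and 19.4 FPKM in siFam129b, against 10.6, 12.6, 11.8 and 11.5 FPKM in siNC. Its values were higher in every siFam129b library, and the log2 difference was 0.41 (unadjusted p = 0.00589, adjusted p = 0.784) and 0.31 without siFam129b library 4. Of 9 tested muscle markers, 1 had a positive log2 difference with all libraries (median -0.42) and 0 without siFam129b library 4 (median -0.36). None passed in either fit. A further fit left out siFam129b library 4 and took replicates 1 and 2 against 3 and 4 as a covariate. In it 2 of these markers passed, and 5 of all 11025 tested genes did. Among these markers, Myog, a transcription factor of differentiation, was at 6.80, 6.77, 2.10 and 2.58 FPKM in siFam129b, against 13.9, 14.3, 7.51 and 4.21 FPKM in siNC. Replicates 1 and 2 were higher than 3 and 4 in both groups, whereas the members had a median log2 difference, replicates 1 and 2 minus 3 and 4, of -0.26 in siFam129b, where library 4 counts among replicates 3 and 4, and of 0.008 in siNC. The labels name no batch, and the split is known from the values alone. In replicates 1 and 2 alone the median log2 difference between groups was 0.07 for complex I, -0.04 for complex II, 0.10 for complex III, 0.07 for complex IV and 0.02 for complex V. In replicates 3 and 4 alone, which include siFam129b library 4, it was 0.40 for complex I, 0.07 for complex II, 0.26 for complex III, 0.43 for complex IV and 0.32 for complex V.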

How the data were processed

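The deposited table gives 1 FPKM value per gene for each of the 8 libraries, computed by the authors from poly(A)-selected, fragmented RNA per the labels' protocols. The submitters' processing notes name the mouse build mm9; the aligner, the counter and the gene models are not stated there or in the labels. Columns were matched to samples by letter and replicate number; for siFam129b this rests on the sample titles alone. FPKM depends on library composition, so a shift in 1 library moves all its genes. Whole reads could be recovered from the 8 values of a gene, to a tolerance of 0.001, for 16478 of the 16479 genes above 0 (Neat1 excepted). The smallest whole numbers that fit were used, which sets a lower bound on reads, and they gave the implied gene lengths.

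The trend method of limma 3.58.1 in R 4.3.3 was fitted to log2(FPKM + 1) for 11025 genes averaging 1 FPKM or more, siFam129b against siNC, adjusted by Benjamini-Hochberg over all of them with a threshold of 0.05; the scale understates fold changes of low genes. Fam129b had an exact permutation test. Alternatives changed the pseudocount, filter, scaling, weights, replicate terms and libraries, or used voom on recovered reads. Members, complexes, gene lists and alternatives were chosen with earlier results of these data known. The text names isoform families, complex II, cytochrome c, the extremes of level and difference in each complex, the members with the smallest p, the related genes, and up to 3 genes a list by p; further members were named after their values were seen, because their groups did not overlap or their library 4 value was extreme. Promoter sequences came from RefSeq (GRCm38.p6), matched by symbol for 77 of 94 members; no other coordinate is printed, since builds differ.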

Additional observations from a re-analysis of the deposited data

Results flagged for a closer look

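In groups of 4 libraries, a value was picked out when the gap from the highest or lowest library to its nearest neighbour, divided by the whole range, exceeded Dixon's 95% critical value. The groups examined were those of the members named by rule, of Fam129b and of the medians of the complexes. In unselected, independent groups chance gives such a gap in about 1 in 20. These groups share libraries and many were named for their values, so that rate is no measure of chance here. The gap was met in 25 of 114 groups examined, 21 of them in siFam129b and 4 in siNC. In 19 of the 21, siFam129b library 4 was the high one. The medians above were given with and without that library.

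Among the medians of the complexes, siFam129b library 4 gave a gap share of 0.892 for complex I, 0.876 for complex III, 0.943 for complex IV and 0.928 for complex V, and siNC library 2 gave 0.859 for complex IV, where its median was 0.10 above the siNC mean on the log2 scale. In ATP synthase, siFam129b library 4 stood apart for Atp5a1 (0.914), Atp5b (0.896) and Atp5e (0.941). In complex I it did for Ndufb7 (0.935) and Ndufb9 (0.839), and in complex II for Sdhb (0.924) and Sdhd (0.847). In complex III it did for Cyc1 (0.917), Uqcr11 (0.977) and Uqcrq (0.947). In complex IV it did for Cox4i1 (0.852) and Ndufa4 (0.906). The same library was high for the assembly factor Ndufaf2 (0.844) and for Fam129b itself (0.889), and its single Cox7b2 read gave 1.

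Apart from that library, siFam129b library 1 was high for Uqcrc2 at 59.4 FPKM (0.918), and the 2 Cox8b reads of siFam129b library 3 gave 1. siNC library 2 was high for Cox7a2 (0.845), Ndufaf7 (0.838) and Uqcrh (0.883).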

How the results depend on the processing

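No member was called under any of the 22 alternatives. Over all genes the count was 0 with all libraries (274 at an unadjusted p under 0.05, and 0 called and 254 by voom), 1 after quantile normalization, 2 with array weights, which gave siFam129b library 4 a weight of 0.0499, and 10 in replicates 1 and 2 alone. Leaving out 1 library gave 0 to 5. The highest count came with siFam129b replicate 4 left out and replicates 1 and 2 against 3 and 4 as a covariate. Without that library alone it was 1. The log2 difference of Fam129b was -0.910 to -0.725 with 1 library left out (exact permutation p = 0.0571 each, the smallest 4 against 3 allows), -0.819 in replicates 1 and 2 and -0.737 in replicates 3 and 4 (p = 0.333, the smallest 2 against 2 allows). For the pairing of numbers, each gene's group mean was first subtracted, so the correlations are of deviations from that mean. Between same-numbered libraries these deviations correlated at 0.531, 0.250, 0.0449 and 0.124, with 3 of 4 above 0.1. Only 2 of 8 libraries correlated best with their own number, so the numbers were not taken as pairs. With a replicate block 0 genes and 0 members were called and 305 genes had an unadjusted p under 0.05. Scaling to an equal sum moved the median of all genes to -0.06, that of members to 0.13, with 74 of 87 positive. The spread between replicates of a complex median is itself set by siFam129b library 4: its SD was 0.330 for complex I over the 4 siFam129b libraries, 0.043 without that library and 0.058 in siNC. Leaving that library out moved the median of complex I from 0.24 to 0.063, of complex III from 0.16 to 0.008, of complex IV from 0.23 to 0.077 and of complex V from 0.19 to 0.011. That of complex II, 0.015 with all libraries, was below 0 without siFam129b library 4 (-0.066; -0.075 with the covariate), without siNC library 4 (-0.0083), under scaling to an equal sum (-0.051), quantile normalization (-0.040), array weights (-0.071) and in replicates 1 and 2 alone (-0.037). Depth limits Cox6a2 and Cox8b.

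Signs turned for these members, none of them called. Scaling to an equal sum turned Atp5a1 (-0.038), Ndufv1 (-0.043), Sdhc (-0.035) and Uqcrfs1 (-0.051). Quantile normalization turned Atp5a1 (-0.071), Atp5g3 (-0.0043), Ndufaf5 (0.0098), Ndufv1 (-0.022), Sdhc (-0.031) and Uqcrfs1 (-0.036). Array weights turned Atp5a1 (-0.072), Atp5g3 (-0.082), Cox5a (-0.060), Cox7a2 (-0.076), Cyc1 (-0.047), Ndufaf6 (-0.046), Ndufv1 (-0.073), Sdhb (-0.028), Sdhc (-0.073) and Uqcrfs1 (-0.020). Taking replicates 1 and 2 alone turned Atp5a1 (-0.060), Atp5g3 (-0.029), Cox7a2 (-0.093), Cox7a2l (-0.065), Ndufv1 (-0.046), Sdhb (-0.0052), Sdhc (-0.026) and Uqcrfs1 (-0.10). Taking replicates 3 and 4 alone turned Atp5b (0.063), Ndufaf6 (-0.060), Sdha (0.052) and Sdhd (0.039). The covariate for replicates 1 and 2 against 3 and 4, without siFam129b library 4, turned Atp5a1 (-0.069), Atp5g3 (-0.020), Cox5a (-0.0056) and Cox7a2l (-0.038). It also turned Cyc1 (-0.030), Ndufv1 (-0.048), Sdhb (-0.027), Sdhc (-0.11) and Uqcrfs1 (-0.083). With 1 library left out, Atp5a1 ran from -0.069 to 0.066, Atp5b ran from -0.084 to 0.021, Atp5g3 ran from -0.035 to 0.23, Cox5a ran from -0.032 to 0.24, Cyc1 ran from -0.052 to 0.22, Ndufaf5 ran from -0.084 to 0.027, Ndufaf6 ran from -0.0051 to 0.19, Ndufv1 ran from -0.057 to 0.065, Sdha ran from -0.059 to 0.026, Sdhb ran from -0.026 to 0.22, Sdhc ran from -0.072 to 0.14, Sdhd ran from -0.093 to 0.033 and Uqcrfs1 ran from -0.065 to 0.071. The cause was not tested.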
